A study of Mus musculus with 5 samples.

Results

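The tricarboxylic acid (TCA) cycle oxidizes acetyl groups in the mitochondrial matrix, and the stretch from oxoglutarate to fumarate is encoded by 10 genes examined here. They were taken by name, as Ogdh, Dlst, Sucla2, Suclg1, Suclg2, Sdha, Sdhb, Sdhc, Sdhd and Fh1, from the 17015 genes of the deposited table. All 10 were among the 12148 genes that averaged 0.5 FPKM or more (fragment counts scaled for transcript length and sequencing depth) and were tested. RNA-seq was done on tibialis anterior (TA) muscle, a fast-twitch hindlimb muscle, of sedentary male mice at 8 weeks of age. The table holds 3 libraries with the genotype label Ctrl, called WT control here, and 2 labelled Nrip1KO. The latter are the study's skmNrip1-/- mice, in which Cre recombinase driven by the myogenin promoter is meant to delete the floxed Nrip1 gene in skeletal muscle. In the study's methods the floxed mice, with loxP sites around exon 4 of both Nrip1 alleles, are C57BL/6J, the Cre mice are C57BL/6JN, and controls are littermates without Cre. Nrip1 encodes RIP140, a corepressor of nuclear receptors that include the estrogen-related receptors (ERR) and the peroxisome proliferator-activated receptors (PPAR).

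Ogdh and Dlst encode the E1 and E2 components of the oxoglutarate dehydrogenase complex, which turns oxoglutarate into succinyl-CoA and NADH. Succinyl-CoA synthetase then releases succinate and makes a nucleoside triphosphate. Its alpha subunit, Suclg1, pairs with the ADP-specific (ATP-forming) beta subunit Sucla2 or with the GDP-specific (GTP-forming) beta subunit Suclg2. Succinate dehydrogenase (SDH) oxidizes succinate to fumarate and is also complex II of the respiratory chain. Its catalytic part holds the flavoprotein Sdha and the iron-sulfur protein Sdhb, and the small hydrophobic subunits Sdhc and Sdhd anchor that part in the inner membrane and help to bind ubiquinone. Fh1 encodes fumarase, which hydrates fumarate to malate. Skeletal muscle with many oxidative fibers is rich in these enzymes, and SDH staining is a classical marker of such fibers.

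The targeted gene was read first, and values per library are given throughout in the order of replicates 1 to 3 and 1 to 2. Nrip1 had an FPKM of 4.64, 7.69 and 6.55 in WT control libraries and 25.3 and 22.5 in those labelled Nrip1KO. Both libraries labelled as the knockout were higher, against their label, and fragments of exon 4 cannot be separated in a table with 1 value per gene. Groups are named as labelled for this reason, and every direction given rests on those names. The tissue was checked with sums of marker genes, of which fast-fiber genes gave the highest, from 67200 to 100000 FPKM over 8 genes. WT control replicate 1 stood apart from the other libraries in its dependence on transcript length. In that library, tested genes with transcripts of 147 to 1593 nucleotides had a median of 0.18, and those of 4993 to 123179 nucleotides a median of -0.11, on a log2 scale centred on the mean of the 5 libraries. In the other 4 libraries the same medians ranged from -0.12 to 0.02 and from -0.02 to 0.08. WT control replicate 2 leaned the other way, with -0.12 and 0.08. Genes were also put into 5 bins of transcript GC content. Medians of the lowest bin were -0.08, 0.04 and -0.09 in WT control libraries, against 0.04 and 0.09 in those labelled Nrip1KO. Those of the highest bin were 0.10, -0.04 and 0.09 against -0.05 and -0.08. The 13 mtDNA-encoded genes took 45.4% to 50.7% of the FPKM sum in WT control libraries and 58.6% and 60.9% in those labelled Nrip1KO, which matters for scaling between libraries.

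The 10 genes lie on 8 autosomes, and the annotation (GENCODE M21, GRCm38) shows no exon of another gene that shares bases with theirs. Suclg2 lies on the minus strand of chromosome 6 (95473009 to 95718800), with 11 exons in its longest coding transcript of 3367 nucleotides. Suclg1 is on the same chromosome (73248382 to 73276911), and Sucla2 is on chromosome 14 (73525319 to 73596142). Sdhc (171127165 to 171150603) and Fh1 (175600374 to 175625635) lie on chromosome 1. Sdha is on chromosome 13 (74322254 to 74350280), Sdhb on chromosome 4 (140961203 to 140979193) and Sdhd on chromosome 9 (50596357 to 50603812). Ogdh is on chromosome 11 (6291633 to 6356642) and Dlst on chromosome 12 (85110833 to 85134845). Suclg2 was the member with a near-identical annotated copy, the processed pseudogene Gm15163 (98.9% identity over 1302 nucleotides), which was listed at 0.123 FPKM or less in every library.

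Windows from 250 bases before to 50 bases after the annotated start were read from RefSeq (GRCm38.p6) for 9 of the members. They are shown for Suclg2, the member with the largest log2 fold change, for its counterpart Sucla2, and for SDH subunits of either class, Sdha and Sdhd. Each is written 5′ to 3′ on the gene's own strand, at chr6:95718797-95719096 (minus), chr14:73552536-73552835 (plus), chr13:74350191-74350490 (minus) and chr9:50603800-50604099 (minus). The RefSeq start used for Sucla2 lies inside the GENCODE span of the gene. Capitals mark matches on either strand to TNAAGGTCA (an ERR element, N being any base), to GCGCA and GCGC with 1 base of any kind between them (an element of nuclear respiratory factor 1, NRF1) or to CCGGAAG (an ETS factor element), none of which overlap each other here.
Suclg2: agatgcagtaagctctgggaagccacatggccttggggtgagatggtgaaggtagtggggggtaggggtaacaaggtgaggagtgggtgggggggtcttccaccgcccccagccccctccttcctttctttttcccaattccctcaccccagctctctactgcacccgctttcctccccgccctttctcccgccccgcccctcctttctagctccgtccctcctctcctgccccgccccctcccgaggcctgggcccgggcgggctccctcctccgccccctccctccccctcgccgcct
Sucla2: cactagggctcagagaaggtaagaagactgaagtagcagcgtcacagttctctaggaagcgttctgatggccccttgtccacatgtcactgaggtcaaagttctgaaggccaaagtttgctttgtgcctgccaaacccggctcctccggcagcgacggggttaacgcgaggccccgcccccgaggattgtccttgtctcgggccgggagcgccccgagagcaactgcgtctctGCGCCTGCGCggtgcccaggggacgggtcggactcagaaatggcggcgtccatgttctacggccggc
Sdha: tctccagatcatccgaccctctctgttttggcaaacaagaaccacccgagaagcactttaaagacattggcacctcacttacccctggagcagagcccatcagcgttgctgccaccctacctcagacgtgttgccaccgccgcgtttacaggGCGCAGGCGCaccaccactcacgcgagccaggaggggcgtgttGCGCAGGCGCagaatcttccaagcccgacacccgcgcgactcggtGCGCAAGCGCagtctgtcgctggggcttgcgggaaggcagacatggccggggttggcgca
Sdhd: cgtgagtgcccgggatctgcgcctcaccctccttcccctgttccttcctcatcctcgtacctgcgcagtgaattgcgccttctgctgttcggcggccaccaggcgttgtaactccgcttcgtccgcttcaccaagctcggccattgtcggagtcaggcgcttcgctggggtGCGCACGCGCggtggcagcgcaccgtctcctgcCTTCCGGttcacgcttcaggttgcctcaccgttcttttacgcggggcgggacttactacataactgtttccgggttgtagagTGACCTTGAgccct

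The Sdha window held 3 matches to the NRF1 letters, the Sucla2 window held 1, and the Suclg2 window held no match to any of the 3 motifs. The Sdhd window held 1 match to each of them, with the ERR letters 36 bases after the annotated start (counted as 0). Over the 9 members with a window, 1 had the ERR letters, 3 the NRF1 letters (Sucla2, Sdha and Sdhd) and 3 the ETS letters (Dlst, Sdhb and Sdhd). Among 9205 tested genes with a window, the shares were 0.967%, 11.8% and 20.3%. A direct repeat of AGGTCA with 1 base of any kind between the copies, a PPAR element, was in the window of no member and of 0.0326% of the tested genes. A match is a description of letters and not a measured binding site.

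The members differed widely in level per length. Sdha was the highest at 846 ± 230 FPKM (SD, n = 3) in WT control TA, and Suclg2 the lowest at 25.2 ± 1.56 (SD, n = 3), a 33.6-fold range that was 25.9-fold between the same genes in the libraries labelled Nrip1KO. The order of the group means was the same in both groups, from Sdha through Sdhb, Sucla2, Ogdh, Sdhd, Sdhc, Suclg1, Dlst and Fh1 to Suclg2. Of these neighbors, Sucla2 and Ogdh overlapped between their WT control libraries, as did Sdhd and Sdhc. In the libraries labelled Nrip1KO, the neighbors that overlapped were Sdhc and Suclg1. The plot of FPKM per library shows these levels.

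**Figure D1:**
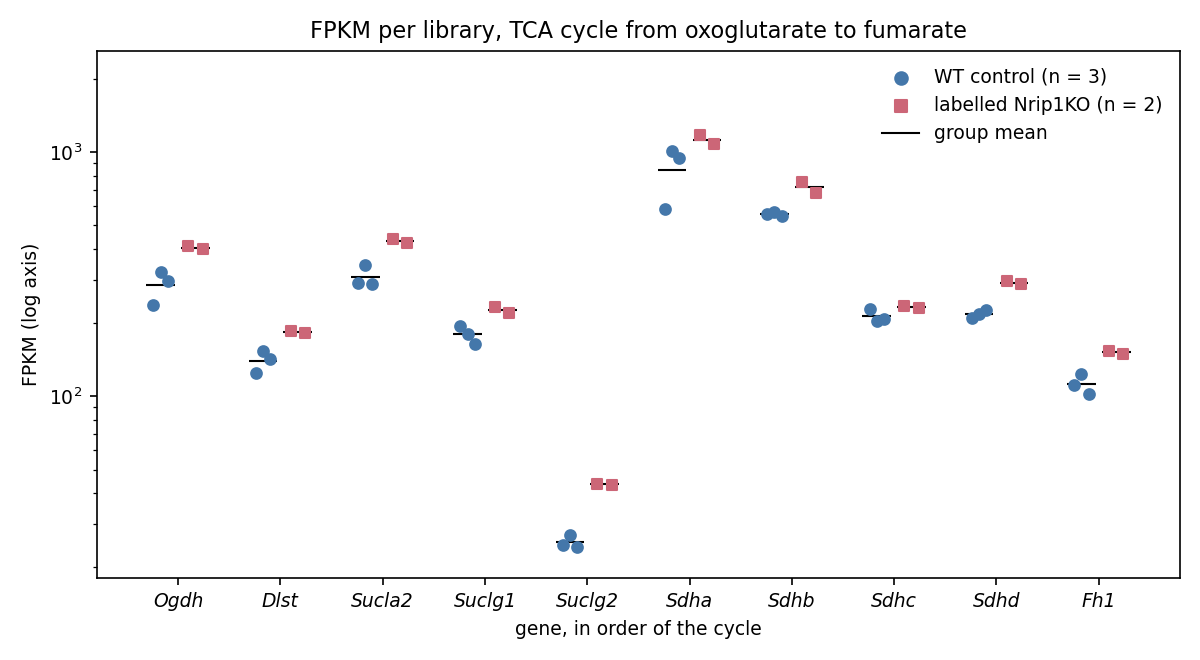
FPKM of the 10 genes on a log axis, with each point a library, circles for 3 WT control libraries, squares for 2 libraries labelled Nrip1KO and bars for group means. Every square lies above every circle of its gene, closely so for Sdhc, and the Sdha circle at 583 FPKM is WT control replicate 1.

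In all 10 members the WT control libraries lay below those labelled Nrip1KO without overlap, which 15.8% of all genes tested did in this direction and 14.4% in the other. The log2 fold changes, on the scale of log2(FPKM + 0.1), ranged from 0.13 to 0.78 with a median of 0.43, against a median of -0.0005 over all genes tested. A gene was called where its limma p, adjusted by Benjamini-Hochberg over all genes tested, was at most 0.05 and its fold difference 1.2 or more. By this rule 1 member, Suclg2, was higher, as were 0.37% of all genes, and no member was lower, as were 0.0823%. Before adjustment, p reached 0.05 with a higher level in 8 members and in 6.57% of all genes, and with a lower level in no member and in 5.33%. Sdha and Sdhc were the members that did not reach it. With each library rescaled to the same FPKM sum (TPM scaling), 1 member reached it in place of 8. With the replicate number as a block, 6 members did. In TA as a whole, more fibers rich in mitochondria and more RNA per fiber cannot be told apart.

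The GTP-forming beta subunit showed the largest difference. Suclg2 was at 24.5, 27.0 and 24.1 FPKM in WT control libraries, and the libraries labelled Nrip1KO were at 43.6 and 43.3 FPKM. The groups were far apart, the lowest library labelled Nrip1KO being 1.6-fold above the highest WT control library. Suclg2 rose 1.72-fold, with a log2 fold change of 0.78 (SE 0.10, limma adjusted p = 0.0414) that lay above 98.1% of the genes tested. The size of this change held between 0.75 and 0.83 when any library was left out, but its adjusted p then ranged from 0.0475 to 0.363. Without WT control replicate 1 or 3, or without replicate 1 or 2 labelled Nrip1KO, the adjusted p was 0.0864, 0.209, 0.328 and 0.363, and with the replicate number as a block it was 0.235. With TPM scaling the log2 fold change of Suclg2 was 0.49 (limma adjusted p = 0.0868), and the call was also lost with TPM scaling without mtDNA-encoded genes (0.0681) and without the eBayes trend (0.11).

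Sucla2, the ATP-forming counterpart, was at 292, 344 and 287 FPKM in WT control libraries, and the libraries labelled Nrip1KO were at 440 and 424 FPKM. The groups did not overlap, and the log2 fold change was 0.50 (SE 0.12, limma adjusted p = 0.215). The shared alpha subunit Suclg1 was at 194, 180 and 163 FPKM in WT control libraries, and the libraries labelled Nrip1KO were at 232 and 219 FPKM. The groups were again separate, with a smaller log2 fold change of 0.34 (SE 0.12, limma adjusted p = 0.334).

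The balance between the beta subunits did not overlap between the groups. The ratio of Sucla2 to Suclg2 in FPKM was 11.9, 12.8 and 11.9 in WT control libraries and 10.1 and 9.80 in those labelled Nrip1KO. Suclg2 made up 7.27% to 7.76% of the FPKM of both beta subunits in WT control libraries and 9.01% and 9.26% in the others. On the log2 scale, Sucla2 minus Suclg2 averaged 3.6 with an SD of 0.06 (n = 3) for WT control and 3.31 with an SD of 0.03 (n = 2) for Nrip1KO. Sucla2 thus remained the main beta subunit transcript in every library, while Suclg2 differed more between the groups. This difference was described per library and not tested, and the genes were chosen with earlier results known.

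Ogdh was at 236, 323 and 296 FPKM in WT control libraries, and the libraries labelled Nrip1KO were at 410 and 400 FPKM. WT control replicate 1 was the lowest, and the log2 fold change was 0.52 (SE 0.15, limma adjusted p = 0.277). Dlst, the lipoate-bearing E2 component, was at 125, 153 and 142 FPKM in WT control libraries, and the libraries labelled Nrip1KO were at 185 and 181 FPKM. The groups did not overlap for either gene, and the log2 fold change of Dlst was 0.39 (SE 0.12, limma adjusted p = 0.284). Ogdh exceeded Dlst by a ratio of 1.89, 2.12 and 2.09 in WT control libraries and of 2.22 and 2.21 in the libraries labelled Nrip1KO. These ratios did not overlap between the groups either, although the group means differed by only 0.12 on the log2 scale, and by 0.07 without WT control replicate 1.

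For SDH, catalytic and membrane subunits were compared. Sdha was at 583, 1009 and 947 FPKM in WT control libraries, and the libraries labelled Nrip1KO were at 1174 and 1074 FPKM. The spread of the WT control libraries, which came from replicate 1, was the widest of all members (coefficient of variation 27.2%). The log2 fold change of Sdha was 0.45 (SE 0.25, limma adjusted p = 0.548), and it was 0.20 without WT control replicate 1 (adjusted p = 0.509). Adjusting every library for its dependence on transcript length left the value at 0.44. The longest coding transcript of Sdha has 2900 nucleotides, and in WT control replicate 1 genes of 2508 to 3514 nucleotides had a median of -0.00 on the centred scale. Lengths are those of annotated transcripts, and the cause of the low Sdha value in that library was not tested. Sdhb, by contrast, had the tightest WT control values, at 560, 567 and 548 FPKM, against 751 and 682 FPKM in the libraries labelled Nrip1KO. Its groups were well apart, with a log2 fold change of 0.36 (SE 0.11, limma adjusted p = 0.292).

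The membrane subunits gave unlike values, although the difference between them was not tested. Sdhd was at 209, 217 and 225 FPKM in WT control libraries, and the libraries labelled Nrip1KO were at 295 and 287 FPKM. The lower library labelled Nrip1KO was 1.28-fold above the highest control, and the log2 fold change was 0.42 (SE 0.10, limma adjusted p = 0.196). Sdhc was at 227, 203 and 206 FPKM in WT control libraries, and the libraries labelled Nrip1KO were at 233 and 229 FPKM. The Sdhc groups nearly touched, and its log2 fold change of 0.13 (SE 0.11, limma adjusted p = 0.715) was the smallest of the 10 members. Its 95% confidence interval, -0.13 to 0.38, includes the values of Suclg1 and Sdhb, and a difference between members was not tested. With TPM scaling, described with the other scalings, Sdhc was at -0.17.

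The split between catalytic and membrane subunits did not separate the groups. The mean log2 value of Sdha and Sdhb minus that of Sdhc and Sdhd was 1.39, 1.85 and 1.74 in WT control libraries and 1.84 and 1.74 in the libraries labelled Nrip1KO. These values overlapped, and the group means differed by 0.13, or by -0.01 without WT control replicate 1. The Sdhd to Sdhc ratio did separate them, at 0.919, 1.07 and 1.09 in WT control libraries and at 1.26 and 1.25 in those labelled Nrip1KO. The same was seen for Sdhb to Sdhc, at 2.46, 2.79 and 2.66 against 3.22 and 2.98, whereas Sdhb to Sdhd overlapped, at 2.68, 2.61 and 2.44 against 2.55 and 2.38. Relative to Sdhb and to Sdhd, Sdhc was lower in both libraries labelled Nrip1KO than in any WT control library. Relative to Sdha it was not. Sdha minus Sdhc on the log2 scale was 1.36, 2.31 and 2.20 in WT control libraries, against 2.33 and 2.23. The group means of Sdha minus Sdhc differed by 0.32, or by 0.02 without WT control replicate 1. These ratios are descriptions with no test.

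**Figure D2:**
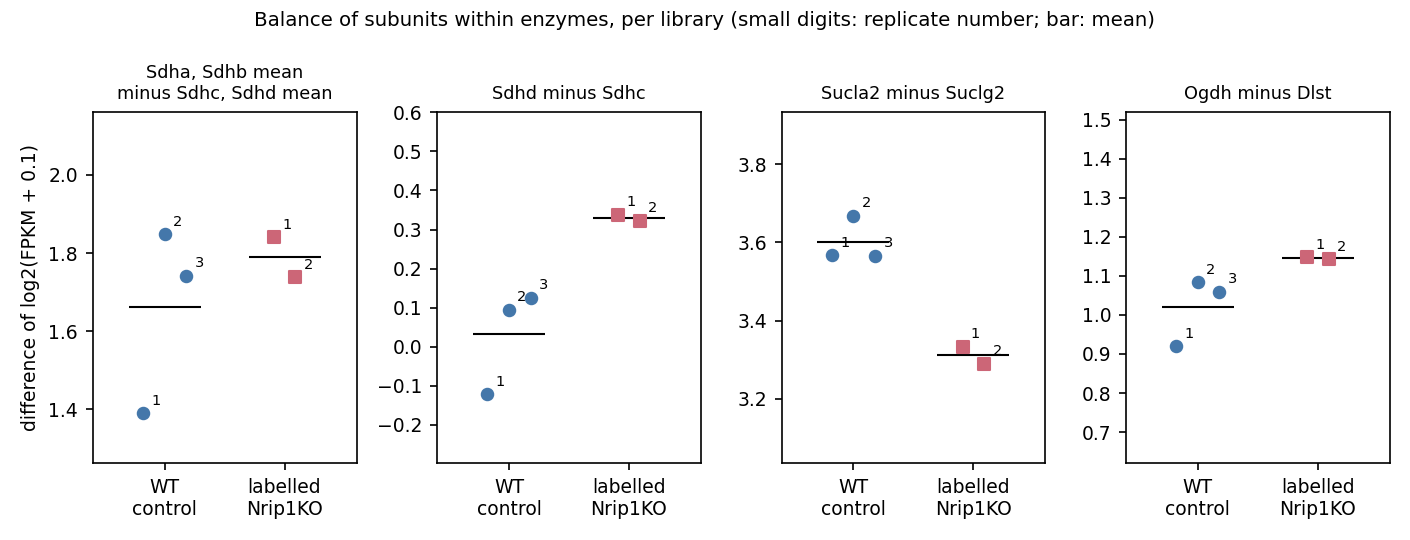
Differences of log2(FPKM + 0.1) between subunits of the same enzyme in each library, with circles for WT control, squares for libraries labelled Nrip1KO, digits for replicate numbers and bars for means. The catalytic minus membrane values of SDH overlap between the groups, whereas Sdhd minus Sdhc lies higher (0.34 and 0.32) and Sucla2 minus Suclg2 lower (3.33 and 3.29) in the libraries labelled Nrip1KO than in any control.

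Fh1, the last enzyme of the stretch, was at 111, 124 and 102 FPKM in WT control libraries, and the libraries labelled Nrip1KO were at 153 and 149 FPKM. The groups did not overlap, and the log2 fold change was 0.44 (SE 0.12, limma adjusted p = 0.244).

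The other 8 enzymes of the TCA cycle showed a similar range. In 8 of 8 the libraries labelled Nrip1KO lay above every control, as in 15.8% of all genes tested. With a higher level, 7 had an unadjusted p of up to 0.05 and 1 was called, beside 6.57% and 0.37% of all genes. However, Cs and Mdh2 were at -0.02 and -0.12 with TPM scaling. Their median log2 fold change was 0.39, beside 0.43 for the 10 members. Idh2, the NADP-dependent mitochondrial isocitrate dehydrogenase, was at 115, 144 and 114 FPKM in the controls and 255 and 237 FPKM in the libraries labelled Nrip1KO. The groups were far apart and Idh2 rose 1.99-fold, or by 0.99 on the log2 scale (SE 0.14, limma adjusted p = 0.0485). The adjusted p of Idh2 ranged from 0.108 to 0.359 when WT control replicate 1 or 3, or either library labelled Nrip1KO, was left out. The Idh2 call was also lost with the replicate block (limma adjusted p = 0.235), with TPM scaling including or leaving out mtDNA-encoded genes (0.0702 and 0.0575), without the trend (0.116), with a pseudocount of 0.01 (0.0515), without an FPKM minimum (0.0616) and after adjustment for transcript GC or length (0.0692 and 0.0617). For the NAD-dependent isocitrate dehydrogenase, the log2 fold changes of Idh3a, Idh3b and Idh3g were 0.50, 0.34 and 0.38. They were 0.48 for Dld, the E3 component that serves Ogdh and Dlst, 0.28 for citrate synthase (Cs) and 0.18 for malate dehydrogenase (Mdh2), and none of these 6 genes was called.

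**Figure D3:**
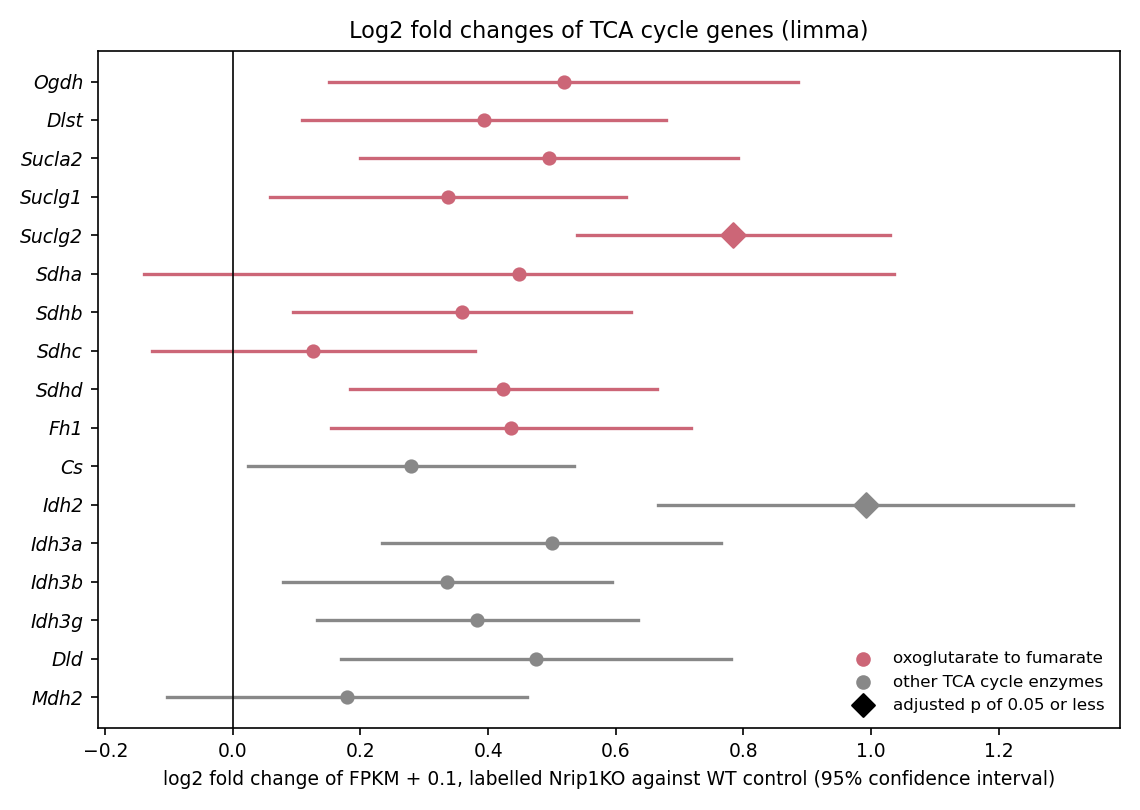
Log2 fold changes of FPKM + 0.1 between libraries labelled Nrip1KO and WT control from limma, with 95% confidence intervals as lines. The 10 genes from oxoglutarate to fumarate and the 7 other TCA cycle enzymes shown all lie above 0, the intervals of Sdha, Sdhc and Mdh2 include 0, and Suclg2 and Idh2 (diamonds) were called.

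None of 4 SDH assembly factors was called or had an unadjusted p that reached 0.05, and the median log2 fold change was 0.15. Sdhaf2, which helps to attach FAD to Sdha, had the largest value, 0.24 (SE 0.11), followed by Sdhaf3 at 0.20 and Sdhaf4 at 0.10. Sdhaf1, which takes part in maturing Sdhb, was at -0.03. None of 12 genes of iron-sulfur cluster assembly was called, and the median was 0.12. An unadjusted p of up to 0.05 was reached by 3, each with a higher level, as by 6.57% of all genes tested. Iba57 (0.47), Isca1 (0.40) and the chaperone Hspa9 (0.40) had the largest values, and the scaffold gene Iscu and Glrx5 were at -0.01 and -0.02.

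Among 5 relatives and partners of oxoglutarate dehydrogenase, the median log2 fold change was 0.05 and none was called. The E2 genes of the sister complexes, Dbt and Dlat, had values of 0.51 and 0.29 (limma adjusted p = 0.313 and 0.398). The E1 relative Dhtkd1 was at -0.19, Ogdhl at -0.15 with 0.787 FPKM or less in every library, and Mrps36, an adaptor of the complex, at 0.05. Of 7 genes of lipoate and cofactor supply none was called, and the median was 0.16. Values of this list ranged from -0.33 to 0.42. An unadjusted p of up to 0.05 was reached by 1 gene with a higher and 1 with a lower level, beside 6.57% and 5.33% of all genes tested. Lipt1, a lipoyltransferase, was at 0.42, the lipoate synthase gene Lias at 0.27 and Flad1 at 0.06.

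Of 17 genes that feed the stretch or draw from it, 16 were tested and none was called, and the median log2 fold change was 0.29. An unadjusted p of up to 0.05 was found for 6, each with a higher level, beside 6.57% of all genes tested. Oxct1, which takes CoA from succinyl-CoA to activate ketone bodies, was at 121, 205 and 157 FPKM in WT control libraries, and the libraries labelled Nrip1KO were at 282 and 292 FPKM. Its log2 fold change of 0.87 (SE 0.21, limma adjusted p = 0.211) was the largest of the list, and WT control replicate 1 was its lowest library. Alas1, which uses succinyl-CoA to start heme synthesis, was at 0.63, and Mmut, which makes succinyl-CoA from methylmalonyl-CoA, at 0.57. Adsl and Fah, which release fumarate outside the cycle, were at 0.01 and -0.02. Sucnr1, the succinate receptor, was below the FPKM minimum, at 0.133 FPKM or less in every library.

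**Figure D4:**
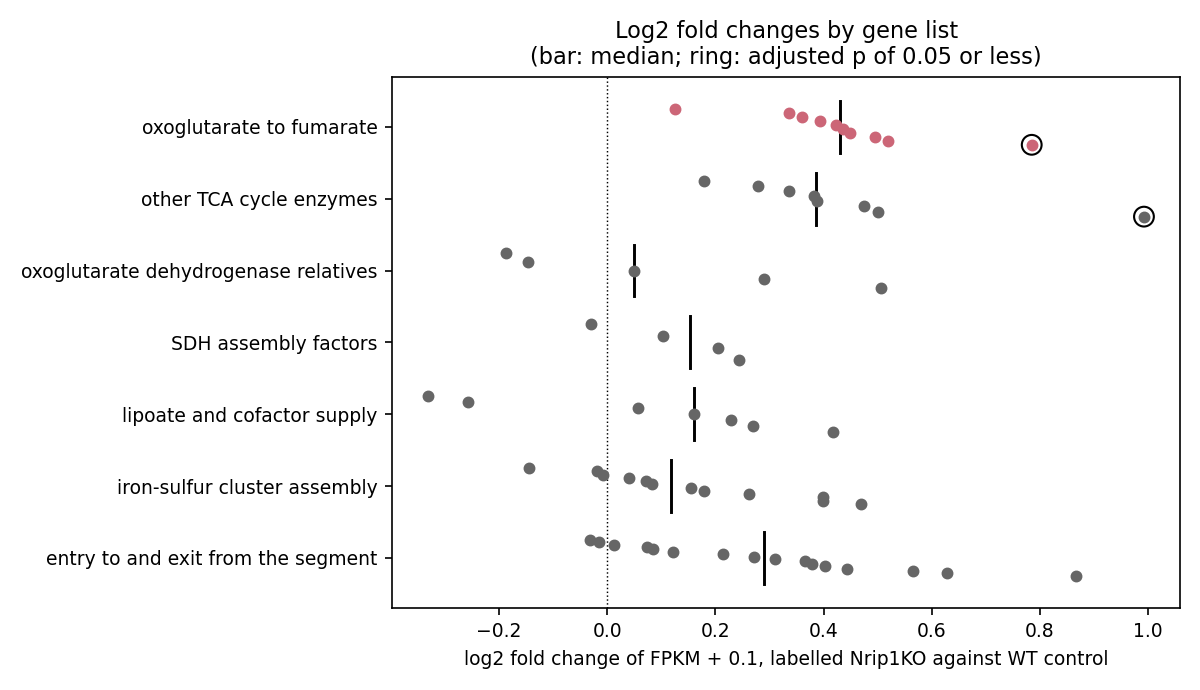
Log2 fold changes of FPKM + 0.1 of single genes in 7 lists, with a bar at each median and a ring around called genes. The medians of the oxoglutarate to fumarate genes (0.43) and of the other TCA cycle enzymes (0.39) lie to the right of those of the SDH assembly (0.15) and iron-sulfur cluster (0.12) lists. The median of the genes that feed the stretch or draw from it (0.29) lies between them.

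Sums of marker genes overlapped between the groups for most cell types and did not for red blood cells, fast fibers, satellite cells and Cidea. Of all single genes tested, 15.8% lay higher without overlap and 14.4% lower. The summed FPKM of 4 red blood cell genes was 492 to 730 in WT control libraries and 786 and 956 in the libraries labelled Nrip1KO, and the sum of 8 fast-fiber genes was 73600 to 100000 against 67200 and 69500. For 7 slow-fiber genes the sums overlapped, at 112 to 316 against 122 to 124 FPKM, as did those for fat (132 to 200 against 156 to 162), endothelium (73.1 to 83.3 against 68.7 to 77.2), macrophages (7.24 to 15.1 against 9.30 to 11.0), fibroblasts (162 to 236 against 195 to 253) and Schwann cells (16.8 to 25.4 against 14.1 to 21.9). The 3 satellite cell genes, of which 1 passed the FPKM minimum, summed to 1.02 to 1.27 FPKM against 0.820 to 0.997. Cidea, a brown fat gene, was at 0.279 to 0.442 against 1.37 and 1.41. No marker gene was called, and the part of these cells in the values of the members was not tested.

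Scaling between libraries set how large the differences were. Median-of-ratios size factors of the deposited FPKM did not differ between libraries, while the FPKM sums were 969144 to 1144714 in WT control libraries and 1286254 and 1288038 in the others. Rescaling each library to the same sum (TPM) moved the median of all genes to -0.29, the median of the members to 0.13 and Sdhc to -0.17, and the remaining 9 members stayed above 0. Relative to the median of all genes, the members then lay between 0.12 for Sdhc and 0.78 for Suclg2. When mtDNA-encoded genes were left out of the sum, the members had a median of 0.51, or 0.43 above that of all genes, and all 10 were above 0. As a share of the FPKM sum without mtDNA-encoded genes, the 10 members took 0.424%, 0.619% and 0.555% in WT control libraries and 0.735% and 0.733% in the libraries labelled Nrip1KO. As a share of the whole sum, the groups overlapped, at 0.224% to 0.305% against 0.304% and 0.287%. The part of the mtDNA-encoded share in the values of the members was not tested.

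**Figure D5:**
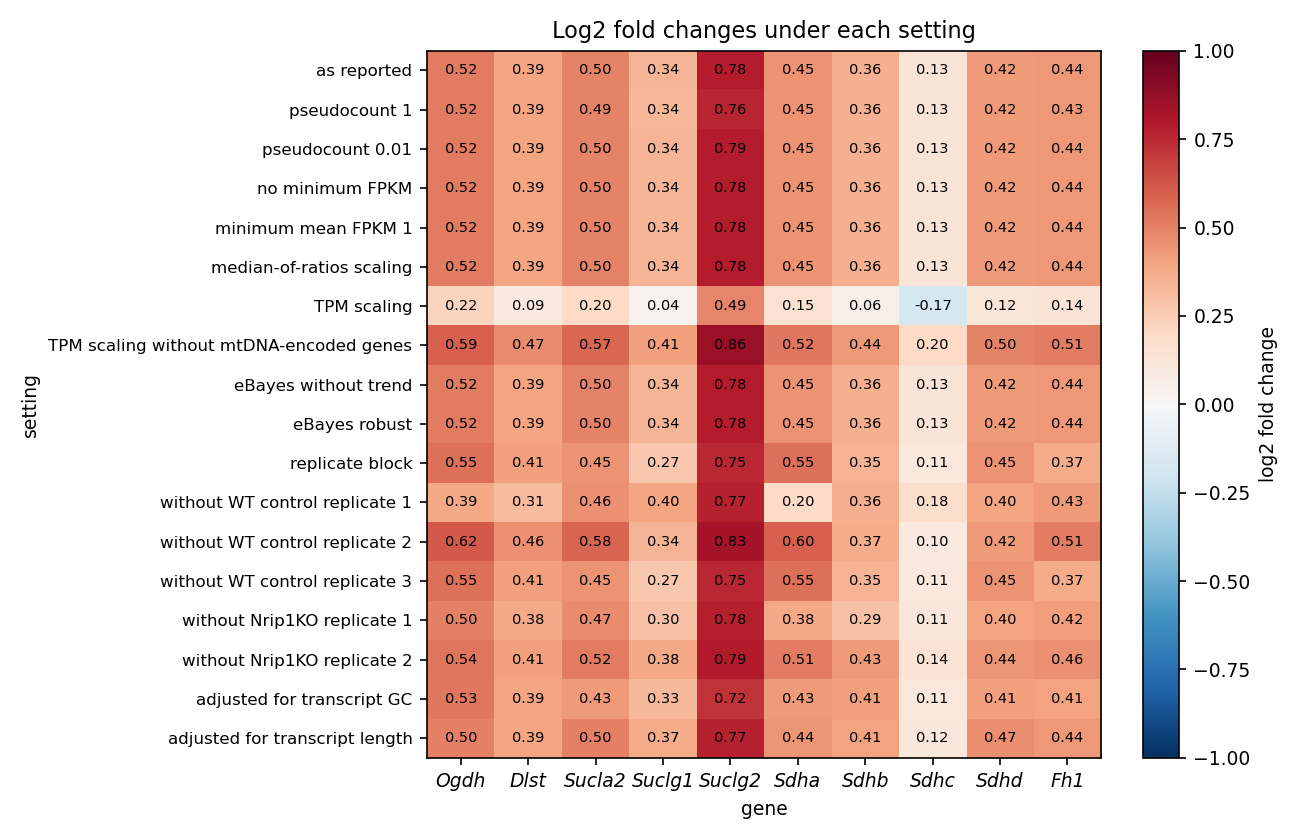
Log2 fold changes of the 10 genes, as numbers and colors, under the reported fit and each alternative setting. The values stay above 0 except for Sdhc at -0.17 under TPM scaling, and Sdha drops from 0.45 to 0.20 without WT control replicate 1.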

How the data were processed

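RNA was sequenced from TA muscle in 5 libraries, 3 WT control and 2 labelled Nrip1KO, grouped by their labels. Per the paper's methods and the labels, the authors quantified reads with Salmon 1.10.2 on the mm10 reference, with tximport for gene-level summaries. FPKM per gene and library were deposited, and how these were computed is not given in the sources used here. The deposited log2 fold change and adjusted p-value columns, from the authors' DESeq2 1.44.0, were not used. Fragment counts per library are not in the table, so the depth is unknown and no counting interval is given. The labels do not say whether libraries came from separate mice, so p-values measure only the spread between these libraries, which may be technical.

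For genes averaging 0.5 FPKM or more, log2(FPKM + 0.1) of all 5 libraries entered 1 fit (R 4.3.3, limma 3.58.1, eBayes with trend), with Benjamini-Hochberg adjustment. FPKM are not counts, and fold changes on this scale understate those of low genes. The call thresholds, adjusted p up to 0.05 and 1.2-fold, follow the paper's methods. The limma step was tested on simulated data. Named genes are the members, the other TCA cycle enzymes, Nrip1, the 3 largest and 2 smallest values of each of 6 lists, and the 5 closest profiles. A few genes named by the rule are left out of the text. Sucnr1 was named after its values were seen, as were the neighbors of the members' starts, and Fdx2 was matched as Fdx1l. Members, lists, motifs and alternatives were chosen with earlier results of these data known. Alternatives were pseudocounts of 1 and 0.01, no minimum and a minimum of 1 FPKM, median-of-ratios scaling, TPM scaling with or without mtDNA-encoded genes, eBayes without trend or robust, the replicate block, a stricter adjusted p, no fold threshold, and leaving out each library. Adjustments for transcript GC content and length (lowess, span 0.3) were added after seeing the data. Near-identical copies were sought with BLAST 2.17.0 (at least 95% identity over 150 nucleotides). Tables were made with Python 3.11.15 and pandas 2.3.3.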

Additional observations from a re-analysis of the deposited data

How the results depend on the processing

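Of the 10 members, 9 kept a log2 fold change above 0 under all 17 alternative fits, and Sdhc did so under 16. Some of these fits could not move the values. Another FPKM minimum or none, and eBayes without trend or robust, alter only p and the genes tested. Median-of-ratios factors were equal in all libraries, so that scaling left the fold changes as they were. The count of called members was 1 and became 0 with TPM scaling, with or without mtDNA-encoded genes, without the eBayes trend, with the replicate block, and at an adjusted p of 0.01 or less. It ranged from 0 to 1 when a library was left out, and so did the count of other pathway genes called. The latter, 1 as reported, became 0 under those same settings and also with a pseudocount of 0.01, without an FPKM minimum, and after adjustment for transcript GC or length. The cause of these changes was not tested. The median of the members was 0.13 with TPM scaling and ranged from 0.39 to 0.48 when a library was left out. Between the beta subunits the difference ranged from -0.31 to -0.26 over the settings run. Between catalytic and membrane subunits it was 0.13 as reported, -0.01 without WT control replicate 1 and 0.22 without replicate 2. The WT control SD of the latter difference was 0.24, with replicate 1 included. Scaling a whole library acts on all subunits alike, so the scaling settings could hardly move either difference. The adjusted p of Suclg2 ranged from 0.0272 to 0.363 over its alternatives. Nrip1 was itself called higher, with a log2 fold change of 1.94 (SE 0.21, limma adjusted p = 0.0261). Its limma adjusted p was above 0.05 without the trend (0.0769), with the block (0.128) and without WT control replicate 3 (0.146). Without replicate 1 or 2 labelled Nrip1KO, its log2 fold change was 1.85 and 2.02.

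Under TPM scaling, values turned below 0 for Sdhc (-0.17), Cs (-0.0204), Mdh2 (-0.12), Dlat (-0.0099), Mrps36 (-0.25), Sdhaf2 (-0.0548), Sdhaf3 (-0.0829), Sdhaf4 (-0.20), Lias (-0.0298), Flad1 (-0.24) and Adsl (-0.29). Without mtDNA-encoded genes in the sum, Sdhaf1 (0.0451), Iscu (0.0675), Glrx5 (0.0566) and Fah (0.059) turned above 0. With the replicate block, Sdhaf1 (0.0196), Iscu (0.0059), Fah (0.157) and Adsl (-0.0004) changed sign. After GC adjustment Iscu (0.021), Glrx5 (0.0003), Fah (0.0233) and Adsl (-0.0063) did so, and after length adjustment Iscu (0.0298), Fah (0.0147) and Adsl (-0.0043). Leaving out a library gave ranges across 0 for Mrps36 (-0.0775 to 0.166), Sdhaf1 (-0.187 to 0.127), Iscu (-0.134 to 0.103), Glrx5 (-0.139 to 0.101), Adsl (-0.0626 to 0.0877) and Fah (-0.170 to 0.157).

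Both groups carry replicate numbers 1 and 2, but same-numbered libraries come from different genotypes. Their deviations from the group means correlated at 0.065 and 0.095 over genes, so the numbers were not taken as pairs. The block leaves WT control replicate 3 without a partner, so its fold changes equal those without that library. Over all genes tested, 45 were called higher and 10 lower, beside 18 and 4 with the replicate block, 29 and 59 with TPM scaling and 22 and 3 without the trend. When a library was left out, 6 to 51 were called higher and 2 to 15 lower. Without an absolute depth, limits on low genes cannot be given.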

Other observations

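Several members start head to head with another protein-coding gene within 1000 bases on the opposite strand, and the groups overlapped for the 3 neighbors described here. Timm8b, which starts 98 bases from Sdhd, was at 179, 131 and 149 FPKM in WT control libraries, and the libraries labelled Nrip1KO were at 176 and 157 FPKM. Its groups overlapped, with a log2 fold change of 0.13 (SE 0.15, limma adjusted p = 0.804). The printed Sdhd window thus covers the space between both starts. Ccdc127, 29 bases from Sdha, was at 21.03 to 24.7 FPKM in WT control libraries and at 22.5 and 21.6 in the others (log2 fold change -0.05). Prox2, 74 bases from Dlst, also overlapped between the groups, at a log2 fold change of -0.02. The differences between members and their neighbors were not tested.

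The profile over the 5 libraries closest to the median profile of the members, among 4548 other tested genes averaging 10 FPKM or more, belonged to Ldhd. Its Euclidean distance on the centred log2 scale was 0.06, and its FPKM was 23.5, 27.1 and 24.6 in WT control libraries and 33.9 and 31.7 in the libraries labelled Nrip1KO. The next 4 were Akap2, Wdr33, Dnaja3 and Hdhd5, at distances from 0.06 to 0.08. Among the members themselves, Dlst (0.09) and Sdhd (0.11) were closest to their median profile, and Suclg2 (0.42) and Sdha (0.50) the farthest.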
